A study of Mus musculus with 29 samples.

Results

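Stroked cortex of NSG mice was set directly against stroked cortex of wild-type (WT) mice, as 3 NSG samples labelled Stroke and 4 WT samples labelled Stroke. These 3 and 4 samples were chosen by their genotype and treatment labels and make up 7 of the 29 samples of the series. All 7 mice had a photothrombotic stroke of the right sensorimotor cortex, in which light and a photosensitive dye clot the vessels under the skull, and tissue around the injury was taken for RNA sequencing at 21 days post injury (dpi). The mice were 3 months of age and of both sexes. WT mice are C57BL/6J. NSG mice are on the NOD background and carry both the scid allele of Prkdc and a null allele of Il2rg, so that strain background and immune deficiency differ together and cannot be told apart in any comparison of NSG with WT mice. The 4 NSG and 4 WT samples labelled as non-stroked have the same genotypes, and they served only to show which differences between the strains were also there without a stroke. The methods take such control tissue from the contralesional side, whereas the results speak of naive mice. Each sample was taken as 1 mouse.

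Prkdc encodes the catalytic subunit of DNA-dependent protein kinase, which joins DNA ends when T and B cells assemble their antigen receptors, so scid mice form almost no mature T and B cells. Il2rg encodes the common gamma chain of the receptors for interleukins such as IL-2, IL-7 and IL-15, and natural killer (NK) cells do not develop without IL-15 signals. Microglia, the resident macrophages of the brain, and infiltrating monocytes and neutrophils do not depend on these genes for their formation. After an ischemic injury of the cortex, microglia and astrocytes become reactive, fibroblasts and astrocytes form a scar, new vessels grow, and a small number of lymphocytes enter the tissue and stay for weeks.

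Total counts were 32821218 to 40629225 per stroked NSG sample and 21309103 to 39695671 per stroked WT sample. All NSG samples and stroked WT mice 1 and 2 carry the label prefix Imm2, and stroked WT mice 3 and 4 carry the prefix TF, and the prefixes are called cohorts here. Ddx3y, a gene of the Y chromosome, was at 0, 0 and 44.6 CPM (counts scaled to the TMM-normalised library size) in NSG mice 1 to 3 and at 35.4, 42.6, 0 and 0 CPM in WT mice 1 to 4, so cohort and expression from the Y chromosome changed together within the stroked WT mice and cannot be told apart there. In every non-stroked NSG and WT mouse Ddx3y was at 49.2 to 53.1 CPM. Expression from the Y chromosome thus also differs between the stroked and non-stroked groups, which bears on each reading of one against the other. The labelled tissue held markers of neurons and astrocytes. The summed level of 5 neuronal markers was 4983 to 5607 CPM in stroked NSG and 4470.0 to 6238 CPM in stroked WT mice, and that of 5 astrocyte markers was 2129 to 3046 and 2067 to 2497 CPM. Genes of the olfactory bulb set 2 of the WT mice apart. The summed level of 8 such genes (Cdhr1, Doc2g, Eomes, Tbx21, Th, Omp, Sp8 and Trh), a list written after these values were seen, was 81.3 and 215 CPM in WT mice 1 and 4, compared with 22.9 and 19.2 CPM in WT mice 2 and 3 and 9.04 to 17.0 CPM in stroked NSG mice. Non-stroked NSG mouse 3 was at 95.5 CPM and the other non-stroked mice were below that. Results that rest on such genes are given with and without WT mice 1 and 4.

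The genes altered in NSG mice gave the following values. Il2rg was at 0.784, 0.914 and 0.979 CPM in the 3 stroked NSG mice and at 3.46, 2.11, 2.52 and 3.30 CPM in the 4 stroked WT mice. The groups did not overlap, and Il2rg was lower in NSG mice (log2 difference -1.67 with SE 0.36, edgeR adjusted p = 0.00263). In non-stroked mice Il2rg was at 0.681 to 1.05 CPM in NSG and 0.716 to 0.871 CPM in WT mice, a difference that was not detected (log2 difference 0.10, edgeR adjusted p = 0.909). The stroked NSG values lay within the range of the non-stroked mice. Prkdc was at 16.7, 24.6 and 27.5 CPM in stroked NSG and 24.8, 28.5, 37.9 and 32.8 CPM in stroked WT mice, with overlapping values (log2 difference -0.43 with SE 0.15, edgeR adjusted p = 0.0521). Counts over a whole gene do not read the altered bases of either allele. The NOD background is also known for variant alleles of Hc, which encodes complement component C5, and of Sirpa, an inhibitory receptor of macrophages. Hc stayed under 1 CPM in every mouse (log2 difference -0.24, edgeR adjusted p = 0.815), and Sirpa was at 457 to 471 and 454 to 522 CPM in stroked NSG and WT mice (log2 difference -0.041, edgeR adjusted p = 0.771).

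Of 17031 genes tested, 280 were higher and 276 lower in stroked NSG mice, where a gene is called at an edgeR adjusted p under 0.05 and an absolute log2 fold change, NSG minus WT and written log2 difference below, above 1. Higher and lower are used of called genes. These are 3.26% of the genes, 1.64% higher and 1.62% lower. Every count of called genes in a list below is to be set against these shares. Values of the 3 NSG and 4 WT mice did not overlap in 510 of the 556 called genes. Over all genes tested, 6.72% lay without overlap on the higher side and 6.86% on the lower side. Most differences were small: 299 called genes differed by at most 2 on the log2 scale and 136 by more than 3. Predicted genes (Gm and Rik names and clone identifiers) made up 117 of the calls. The 2 cohorts of the WT mice bear on these counts. With the cohort as a covariate 2.95% of genes were called, and within the Imm2 cohort alone, with 3 NSG and 2 WT mice, 2.26%. Of the 556 called genes, 400 were called again in the first and 320 in the second fit, and 311 in both.

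Most of the differences between the stroked strains were also found in mice without a stroke. Non-stroked NSG and WT mice differed in 573 genes (3.36%). Of the 556 genes called in stroked mice, 318 were called in non-stroked mice in the same direction and 0 in the opposite direction, 57.2% of the stroked and 55.5% of the non-stroked calls. The 2 comparisons share no samples. Stroked NSG mice 1 and 2 and stroked WT mice 3 and 4 were at 0 CPM for Ddx3y, unlike every non-stroked mouse. These stroked mice therefore did not give any non-stroked sample. Whether the other stroked mice did cannot be told, since the methods take control tissue from the contralesional side and the results speak of naive mice. Among the calls with the larger differences more were called in both, 101 of the 136 above 3 (74.3%) and 138 of the 299 between 1 and 2 on the log2 scale (46.2%). Of the shared calls 77% held with the cohort covariate and within Imm2, against 27.7% of the 238 calls that were not made in non-stroked mice, of which 183 had the same sign without a stroke.

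**Figure D1:**
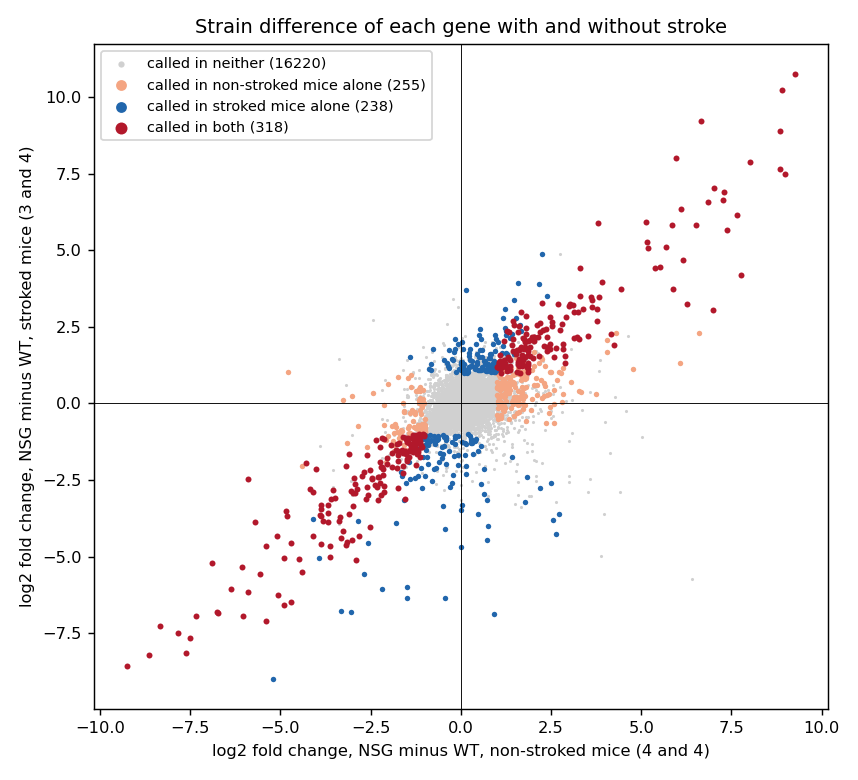
Log2 fold change of NSG minus WT for each of 17031 genes, in non-stroked mice (x axis, 4 NSG and 4 WT) and in stroked mice (y axis, 3 NSG and 4 WT), with colours for genes called in neither, either or both comparisons. The 318 genes called in both all have the same sign on both axes.

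Many of the largest differences were genes that were near 0 in 1 of the 2 strains, with or without a stroke. Among the 12 named genes highest in stroked NSG mice, 10 were also called in non-stroked mice. Tpm3-rs7, a copy of the tropomyosin gene Tpm3 (GRCm38 chromosome 14, 113314608 to 113316754), was at 48.5, 41.9 and 36.5 CPM in NSG mice and 0.0505, 0.0278, 0.174 and 0.122 CPM in WT mice (log2 difference 8.90 with SE 0.31, edgeR adjusted p = 1.44e-16). Eno1b, a copy of the enolase gene Eno1, was at 31.1, 17.9 and 20.8 CPM in NSG mice and had 2 counts over all 4 WT mice, a ratio of 1537-fold (95% interval 425 to 12698, edgeR adjusted p = 2.61e-14). Such intervals cover counting error only. Eif3j2, a copy of the translation initiation factor gene Eif3j1, was at 5.39 to 5.90 CPM in NSG and 0 to 0.217 CPM in WT mice (log2 difference 5.84 with SE 0.39, edgeR adjusted p = 3.91e-11). Of the 50-base words of the longest annotated transcript, 69.4% in Tpm3-rs7, 84.5% in Eno1b and 91.8% in Eif3j2 also occurred in a transcript of another gene, so reads can be assigned to either copy. Tpm3 itself passed the adjusted p but not the fold threshold (log2 difference -0.83 with SE 0.075, edgeR adjusted p = 1.13e-08), and the sum of Tpm3 and Tpm3-rs7 was 101.7 ± 8.06 CPM (SD, n = 3) in NSG and 106.1 ± 12.2 CPM (SD, n = 4) in WT mice. Eno1 also passed the adjusted p alone (log2 difference -0.49 with SE 0.10, edgeR adjusted p = 0.00188), and the sum of Eno1 and Eno1b was 245.5 ± 57.5 CPM (SD, n = 3) in NSG and 312.7 ± 11.9 CPM (SD, n = 4) in WT mice. The sum of Eif3j1 and Eif3j2 was 19.2 ± 1.49 and 18.9 ± 4.67 CPM in the same mice. Over all called genes, 53 (9.57%) shared at least 50% of these words with another gene, against 3.63% of all genes tested.

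The zinc finger genes Zfp990 and Zfp985 of chromosome 4 were at 3.90 to 4.82 and 0.949 to 1.62 CPM in stroked NSG mice. Zfp990 had 2 counts over the 4 WT mice, a ratio of 294-fold (95% interval 81.1 to 2437, edgeR adjusted p = 4.74e-11), and Zfp985 reached at most 0.0833 CPM there (log2 difference 4.20, edgeR adjusted p = 5.02e-06). Serpina3m, a serine protease inhibitor of the same family as the reactive astrocyte gene Serpina3n, was at 4.40, 8.08 and 3.61 CPM in NSG mice and had 3 counts over the WT mice, a ratio of 241-fold (95% interval 81.9 to 1169, edgeR adjusted p = 6.56e-09). Ifi202b, an interferon-inducible gene of chromosome 1 that encodes a DNA-binding protein of the p200 family, was at 1.87, 5.14 and 1.93 CPM in stroked NSG mice, and a single read was counted over the 4 stroked WT mice (edgeR adjusted p = 1.03e-06). In non-stroked NSG mice it was at 0.127 to 0.340 CPM and in non-stroked WT mice at 0, so that every stroked NSG mouse lay above every non-stroked NSG mouse. Myh6, a cardiac myosin heavy chain gene (log2 difference 4.45, edgeR adjusted p = 1.13e-06), and Ccr6, a chemokine receptor of lymphocytes and dendritic cells (log2 difference 3.74, edgeR adjusted p = 0.000104), were called with and without a stroke. Ccr6 was at 0.936, 1.95 and 2.36 CPM in stroked NSG and 2.28, 2.08, 2.32 and 2.29 CPM in non-stroked NSG mice, and at 0.0278 to 0.261 and 0 to 0.114 CPM in the WT mice.

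Hal and Cfi were the 2 of the 12 highest named genes that were not called in non-stroked mice. Hal encodes histidine ammonia-lyase, which breaks down histidine. It was at 1.62, 6.35 and 1.65 CPM in stroked NSG mice and 0.177, 0.0556, 0.0869 and 0.0916 CPM in stroked WT mice, without overlap (log2 difference 4.88 with SE 0.63, edgeR adjusted p = 5.03e-06). Non-stroked mice of both strains stayed at or below 0.152 CPM. Cfi encodes complement factor I, a protease that cuts C3b and so restrains the complement cascade. It was at 1.52, 6.13 and 1.71 CPM in stroked NSG and 0.0757, 0.139, 0.261 and 0.367 CPM in stroked WT mice (log2 difference 3.92 with SE 0.55, edgeR adjusted p = 1.63e-05), and at most 0.0508 CPM in any non-stroked mouse. NSG mouse 2 was the highest for both genes, and the other 2 NSG mice also lay above all WT mice. The test of whether these strain differences changed with stroke did not pass for Hal (log2 difference 2.63, edgeR adjusted p = 0.490) or Cfi (log2 difference 2.33, edgeR adjusted p = 0.746).

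Among the 12 named genes lowest in stroked NSG mice, 8 were also called in non-stroked mice. Trim12a, a member of the TRIM family of antiviral genes (chromosome 7, 104299894 to 104315466), was at 4.22, 4.97, 5.35 and 4.64 CPM in stroked WT mice and had a single read over the 3 NSG mice (edgeR adjusted p = 2.80e-10). Pttg1, which encodes securin, an inhibitor of chromosome separation, was at 1.01, 0.445 and 0.704 CPM in NSG and 18.9, 19.6, 16.3 and 18.5 CPM in WT mice (log2 difference -4.66 with SE 0.18, edgeR adjusted p = 6.81e-16). Rec8, a cohesin subunit of meiosis, was at 0.0612 to 0.101 CPM in NSG and 3.25 to 4.22 CPM in WT mice (log2 difference -5.33, edgeR adjusted p = 1.59e-12). Crym, which encodes the thyroid hormone-binding protein crystallin mu and is expressed in deep cortical and striatal neurons, was at 1.85, 2.50 and 3.98 CPM in NSG and 42.4, 33.7, 59.1 and 64.1 CPM in WT mice (log2 difference -4.18 with SE 0.35, edgeR adjusted p = 3.19e-09), and without a stroke NSG mice were at 1.52 to 4.99 CPM and WT mice at 27.1 to 34.1 CPM. None of these 4 genes had overlapping values between the stroked strains. Olfr316, an olfactory receptor gene, had a single read over the NSG mice against 1.16 to 2.33 CPM in WT mice (edgeR adjusted p = 1.20e-07). Cyp2f2, a cytochrome P450 gene, was at 0.0506 to 0.371 CPM in NSG and 2.41 to 6.39 CPM in WT mice (log2 difference -4.33, edgeR adjusted p = 0.000319). Srp54a, a subunit gene of the signal recognition particle, was at 0.0506 to 0.214 CPM in NSG and 2.58 to 4.39 CPM in WT mice (log2 difference -4.57, edgeR adjusted p = 1.13e-10), but 75.2% of its words occurred in another gene and its near-identical neighbour Srp54c was at 14.5 to 17.7 CPM in NSG and 9.78 to 19.1 CPM in WT mice (log2 difference 0.20, edgeR adjusted p = 0.457).

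The mitochondrial gene mt-Nd3, which encodes a subunit of respiratory complex I, was at 10.8, 15.5, 5.26 and 4.64 CPM in stroked WT mice, while 3 reads in all were counted in the 3 stroked NSG mice, a ratio of 359-fold (95% interval 123 to 1744, edgeR adjusted p = 1.28e-10). Non-stroked NSG mice were at 0.0292, 0, 0.0283 and 0.0309 CPM. mt-Nd4l, another complex I gene, had 0 counts over the 3 stroked NSG mice and was at least 10.01-fold lower, against a floor of 3 counts over the group (edgeR adjusted p = 0.000333). It was named after its values were seen. The neighbouring mt-Nd4 was at 3827 to 4793 CPM in stroked NSG and 2682 to 5612 CPM in stroked WT mice (log2 difference 0.20, edgeR adjusted p = 0.506). Nearly all 50-base words of the first 2 genes (98.0% and 98.8%) also occurred in a transcript annotated for another gene, so their counts can depend on how reads that match several places were treated, which is not given in the sources used here.

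**Figure D2:**
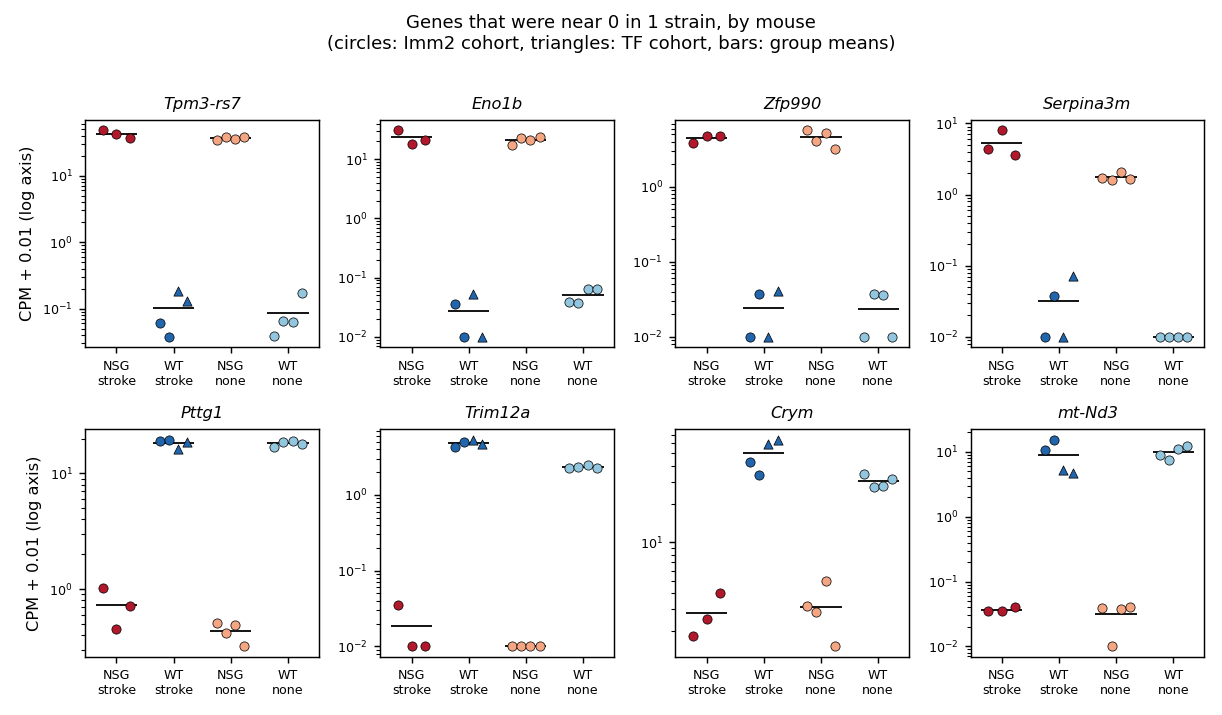
CPM + 0.01 on a log axis for 8 genes that were near 0 in 1 strain, in 3 stroked NSG, 4 stroked WT, 4 non-stroked NSG and 4 non-stroked WT mice, with bars at the group means. For each gene the 2 strains stand apart in the same direction with and without a stroke.

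Several transcripts of lymphocytes were counted in stroked WT mice and hardly at all in stroked NSG mice, while others of the same lists were at overlapping levels. Bulk tissue cannot tell fewer cells of a type from less RNA per cell. Of 18 T cell genes tested, 4 were lower and 0 higher in NSG mice, with a list median of -0.51 against 0.018 over all genes, of which 1.62% were lower. Genes at 0 in NSG mice passed the filter on low counts through other mice, so the counts and medians of the T and B cell lists are a description. Cd3e and Cd3g, chains of the T cell receptor complex, were counted in all 4 stroked WT mice, at 0.707, 0.139, 0.478 and 0.336 CPM for Cd3e and 0.454, 0.139, 0.0435 and 0.275 CPM for Cd3g. Over the 3 NSG mice 1 read of Cd3e and 0 reads of Cd3g were counted. The ratio of WT to NSG was 47.2-fold (95% interval 8.12 to 1897, edgeR adjusted p = 0.000564) for Cd3e, and Cd3g was lower by at least 9.44-fold (edgeR adjusted p = 0.0157). Cd8a, the coreceptor of cytotoxic T cells, had 58 counts over the WT mice and 0 over the NSG mice (at least 16.6-fold lower, edgeR adjusted p = 0.00163), and Trbc1, a constant segment of the T cell receptor, had 23 and 0 (at least 6.58-fold lower, edgeR adjusted p = 0.00517). Of the defining markers, Cd3d and Cd3g were at 0 in all stroked NSG mice. Trbc2 was at 12.7, 3.73 and 5.69 CPM in stroked NSG and 8.38, 7.95, 4.26 and 5.19 CPM in stroked WT mice (log2 difference 0.19, edgeR adjusted p = 0.794), and made up most of the summed level of the 5 T cell markers, which overlapped between the groups (4.40 to 13.3 and 5.78 to 10.6 CPM). In non-stroked WT mice Cd3e was at most 0.110 CPM and Cd8a at most 0.0550 CPM. Of the 4 calls, 1 was lost when a single mouse was left out, Cd3g without NSG mouse 1 (edgeR adjusted p = 0.0575).

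Of 14 B cell and immunoglobulin genes tested, 4 were lower and 0 higher (median -0.57, with 1.62% of all genes lower). Igkc, the constant region of the kappa light chain, was at 0.959, 4.39, 1.04 and 1.25 CPM in stroked WT mice and at 0 in all 3 stroked NSG mice, at least 74.6-fold lower (edgeR adjusted p = 0.00172). WT mouse 2 was the highest, and the other 3 WT mice lay close together. Igha, the heavy chain of immunoglobulin A, had 193 counts over the WT mice and 1 over the NSG mice (edgeR adjusted p = 0.00166), and was at 0.682, 2.64, 0.522 and 1.80 CPM in the WT mice. The lambda light chain genes Iglc3 and Iglc1 had 34 and 12 counts over the WT mice and 0 over the NSG mice (at least 9.72-fold lower with edgeR adjusted p = 0.00690, and at least 3.43-fold lower with edgeR adjusted p = 0.0322). Of these 4 calls Iglc1 alone was lost when a mouse was left out, Iglc1 without any one of NSG mice 1 or 2 or WT mice 3 or 4 (edgeR adjusted p from 0.0544 to 0.0896). With the cohort covariate Iglc1 was not called either (log2 difference -3.47, edgeR adjusted p = 0.129). Ms4a1, like Igkc, was at 0 in every stroked NSG mouse, and it was too low in WT mice to be tested. Ighm, at 41.2 to 48.7 CPM in stroked NSG and 25.4 to 55.6 CPM in stroked WT mice, was not called (log2 difference 0.24, edgeR adjusted p = 0.610) and made up most of the summed B cell markers. Another B cell marker, Cd79a, had the highest log2 difference of the list and overlapping values (1.17, edgeR adjusted p = 0.175). It was at 0.759, 0.346 and 0.245 CPM in stroked NSG and 0.177, 0.278, 0 and 0.305 CPM in stroked WT mice. Over the list 10 log2 differences were negative and 4 positive.

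Of 20 NK cell and cytotoxic genes only 7 passed the filter on low counts, and 4 of these 7 were lower in NSG mice, with 1.62% of all genes lower. Since genes at such levels passed mainly through the WT mice, the count and the list median are a description. Nkg7, a granule protein of NK and cytotoxic T cells, had 31 counts over the WT and 2 over the NSG mice, a ratio of 13.3-fold (95% interval 3.38 to 115, edgeR adjusted p = 0.0165). Ccl5, a chemokine made by cytotoxic lymphocytes and macrophages, was at 0.253, 0.494 and 0.275 CPM in stroked NSG and 2.37, 0.945, 0.826 and 1.34 CPM in stroked WT mice (log2 difference -2.0 with SE 0.59, edgeR adjusted p = 0.0262). Both genes lay without overlap, and neither was called with the cohort as a covariate (edgeR adjusted p = 0.0527 and 0.0512). Within Imm2 Ccl5 was called (log2 difference -2.27, edgeR adjusted p = 0.00911) and Nkg7 was not (log2 difference -3.37, edgeR adjusted p = 0.101). The other 2 were Eomes and Tbx21, transcription factors of NK and T cells that projection neurons of the olfactory bulb also express. Eomes was at 6.72, 1.67, 0.826 and 14.6 CPM in the 4 WT mice and 0.0759, 0.371 and 0.490 CPM in the 3 NSG mice (log2 difference -4.27, edgeR adjusted p = 0.0355). Tbx21 was at 2.88, 0.611, 0.304 and 5.77 CPM in WT and 0.304, 0.173 and 0.0918 CPM in NSG mice (log2 difference -3.62, edgeR adjusted p = 0.0321). WT mice 1 and 4, which were high in both, were also those high in the olfactory bulb genes, such as Cdhr1 at 32.8, 8.31, 6.87 and 81.7 CPM. Neither was called with the cohort covariate (edgeR adjusted p = 0.117 and 0.112) or within Imm2 (edgeR adjusted p = 0.0756 and 0.0914). Without WT mice 1 and 4 none of the 7 genes was called. All 4 calls also depended on single mice: Ccl5 without any one of NSG mice 1 or 3 or WT mouse 1 (edgeR adjusted p from 0.0621 to 0.112), Nkg7 without WT mouse 4 (edgeR adjusted p = 0.0571), Eomes without any one of NSG mice 1, 2 or 3 or WT mouse 4 (edgeR adjusted p from 0.0542 to 0.143) and Tbx21 without any one of NSG mice 1, 2 or 3 or WT mouse 4 (edgeR adjusted p from 0.0670 to 0.135) were not called. The T cell and immunoglobulin lists kept 2 calls each without these 2 mice, Cd3e and Cd8a, and Igkc and Igha, and Iglc3 was not tested in that fit. Adamts19, another of the 12 lowest named genes, was at 0.0759, 0.124 and 0.214 CPM in NSG mice and at 2.98, 1.14, 0.217 and 7.67 CPM in WT mice 1 to 4 and followed the same order of mice. It was not called without WT mice 1 and 4 (edgeR adjusted p = 0.193).

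Of 16 genes around the common gamma chain 3 were lower and 0 higher, against 1.62% of all genes lower. These were Il2rg (above), Il2rb and Il15 (list median -0.16). Il2rb, which pairs with the common gamma chain in the IL-2 and IL-15 receptors, was at 0.354, 0.198 and 0.551 CPM in stroked NSG and 0.959, 0.945, 1.39 and 1.62 CPM in stroked WT mice (log2 difference -1.74 with SE 0.55, edgeR adjusted p = 0.0380). In non-stroked mice Il2rb lay the other way without overlap, at 0.234, 0.330, 0.539 and 0.464 CPM in NSG and 0.228, 0.218, 0.0265 and 0.110 CPM in WT mice, and was not called (log2 difference 1.41, edgeR adjusted p = 0.146). Il15, the cytokine itself, was at 0.506, 0.692 and 0.275 CPM in NSG and 0.757, 0.833, 1.78 and 1.07 CPM in WT mice (log2 difference -1.13 with SE 0.35, edgeR adjusted p = 0.0352), and it was also lower in non-stroked NSG mice (log2 difference -2.18, edgeR adjusted p = 0.000715). Neither Il2rb nor Il15 was called with the cohort covariate (edgeR adjusted p = 0.191 and 0.246) or within Imm2 (edgeR adjusted p = 0.162 and 0.385), whereas Il2rg was (log2 difference -1.45, edgeR adjusted p = 0.0151). Il2rb without any one of NSG mice 1 or 2 or WT mice 3 or 4 (edgeR adjusted p from 0.0818 to 0.116) and Il15 without any one of NSG mice 1 or 3 or WT mice 3 or 4 (edgeR adjusted p from 0.0675 to 0.153) were not called either.

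Interferon-stimulated genes had mostly negative log2 differences, few of which passed the test. Of 51 tested, 3 were lower and 0 higher, with 1.62% of all genes lower. The list median, against 0.018 over all genes, was -0.31, with 42 negative values. Within the Imm2 cohort the median was -0.025, with the same number of calls. Cxcl9, a chemokine induced by interferon gamma that attracts T cells through CXCR3, was at 0, 0.0741 and 0.122 CPM in stroked NSG and 1.94, 1.44, 0.652 and 0.489 CPM in stroked WT mice (log2 difference -4.11 with SE 1.08, edgeR adjusted p = 0.0127). Non-stroked mice of both strains were at most at 0.0544 CPM. The other 2 called genes, Igtp and Irgm2, encode interferon-inducible GTPases that act against intracellular microbes. Igtp was at 2.3, 2.72 and 2.14 CPM in NSG and 8.46, 4.56, 6.04 and 7.12 CPM in WT mice (log2 difference -1.45 with SE 0.31, edgeR adjusted p = 0.00217), and Irgm2 was at 1.97, 5.36 and 2.69 CPM in NSG and 7.35, 6.92, 9.48 and 8.03 CPM in WT mice (log2 difference -1.24 with SE 0.32, edgeR adjusted p = 0.0105). Both lay without overlap. Igtp was also lower in non-stroked NSG mice (log2 difference -1.27, edgeR adjusted p = 0.00452), and for Irgm2 that comparison did not pass (log2 difference -0.90, edgeR adjusted p = 0.0572). Cxcl9 without NSG mouse 1 (edgeR adjusted p = 0.0732) and Irgm2 without NSG mouse 1 (edgeR adjusted p = 0.0840) were not called. Irf1, an interferon-induced transcription factor, was at 4.77 to 8.20 CPM in NSG and 7.08 to 10.6 CPM in WT mice (log2 difference -0.42, edgeR adjusted p = 0.257).

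Igtp and Irgm2 lie on chromosome 11, and their start regions, shown because both genes were lower, hold the same pair of motifs. In GENCODE M21 the 2 gene models overlap, Igtp at 58199556 to 58207591 and Irgm2 at 58199618 to 58222782. Their counts may therefore not be independent. The Irgm2 start used here is a RefSeq start further along that gene. The sequences are from RefSeq on GRCm38.p6, read 5′ to 3′ along the gene from the 250 bases before its start, and capitals mark matches on either strand to TTCNNNGAA, the core of the interferon gamma-activated site (GAS), and to GAAA followed by any 2 bases and GAAA, the core of the interferon-stimulated response element (ISRE). Igtp is at chr11:58199499-58199543 and Irgm2 at chr11:58214890-58214934, both on the plus strand. In the same way, 2 of the MHC class I genes below hold the ISRE core alone, H2-T22 at chr17:36042912-36042945 and H2-T23 at chr17:36032804-36032837, both on the minus strand and with the core on the strand opposite to the gene.
Igtp: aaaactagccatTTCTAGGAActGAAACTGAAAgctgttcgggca
Irgm2: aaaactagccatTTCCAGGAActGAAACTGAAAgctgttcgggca
H2-T22: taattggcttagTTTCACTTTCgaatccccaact
H2-T23: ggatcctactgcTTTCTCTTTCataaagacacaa
The Igtp and Irgm2 windows are 45 bases long and agree in 44, with T16C as the only difference, counted from 1 at the 5′ end with the Igtp base first, inside the GAS core. The GAS core starts 45 bases before the start of Igtp and 75 before that of Irgm2, and the ISRE core follows 34 and 64 bases before the start. Of 32851 promoter entries of the same length, 7.02% held the GAS core and 2.98% the ISRE core. No match to either was in the 250 bases of Cxcl9 or H2-K1. A match describes letters and not a bound factor.

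MHC class I genes differed in both directions. Of 22 tested, 2 were higher and 3 lower, with 1.64% of all genes higher and 1.62% lower. All 5 were also called in the same direction in non-stroked mice. H2-T22, a nonclassical class I gene, was at 0.911, 1.46 and 1.74 CPM in stroked NSG and 16.7, 12.6, 18.3 and 20.4 CPM in stroked WT mice (log2 difference -3.64 with SE 0.23, edgeR adjusted p = 2.72e-11). H2-T23, which encodes Qa-1, a ligand of NK cell receptors, was at 2.81, 3.66 and 3.70 CPM in NSG and 18.0, 12.2, 20.1 and 23.8 CPM in WT mice (log2 difference -2.45 with SE 0.24, edgeR adjusted p = 4.20e-08). H2-K1, a classical class I gene, was at 31.0, 35.8 and 23.3 CPM in NSG and 81.9, 60.1, 70.8 and 72.7 CPM in WT mice (log2 difference -1.25 with SE 0.29, edgeR adjusted p = 0.00533), while H2-D1, the other classical gene, was at 95.5, 141 and 78.6 CPM in NSG and 126, 69.8, 106 and 123 CPM in WT mice (log2 difference -0.016, edgeR adjusted p = 0.981). The first 3 lay without overlap and H2-D1 overlapped. NOD and C57BL/6 mice carry different K alleles and the same D allele, and near-identical class I genes can exchange reads. H2-Q1 and H2-Q10 were higher in NSG mice, H2-Q1 at 2.58, 4.84 and 3.40 CPM in NSG and 0.126, 0.639, 0.565 and 0.519 CPM in WT mice (log2 difference 2.98, edgeR adjusted p = 0.000365) and H2-Q10 at 0.658 to 1.04 CPM in NSG and 0.0252 to 0.183 CPM in WT mice (log2 difference 3.24, edgeR adjusted p = 0.00136). The whole list had a median of -0.15. For H2-K1 every stroked mouse lay above every non-stroked mouse of its strain, which were at 5.73 to 7.11 CPM in non-stroked NSG and 16.3 to 18.3 CPM in non-stroked WT mice. Of 11 MHC class II genes tested, H2-DMb2 was higher (log2 difference 1.75, edgeR adjusted p = 0.000343), with 1.64% of all genes higher. H2-Oa (log2 difference -1.55, edgeR adjusted p = 0.00312) and H2-Ob (log2 difference -1.79, edgeR adjusted p = 0.00380) were lower, with 1.62% of all genes lower. The products of H2-Oa and H2-Ob form an inhibitor of peptide loading that is typical of B cells. The list had a median of -0.49, and -0.12 within Imm2.

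**Figure D3:**
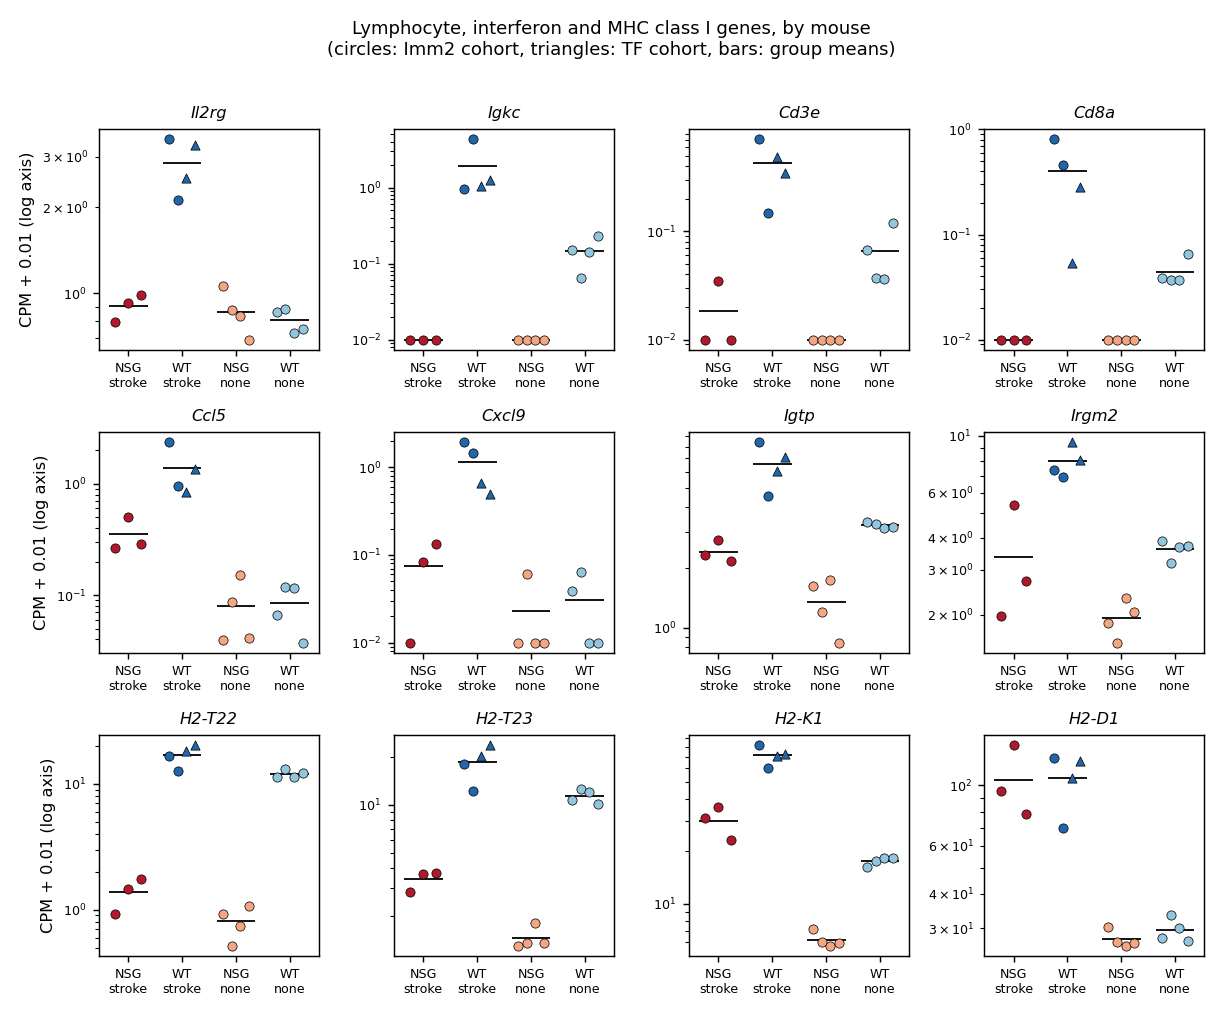
CPM + 0.01 on a log axis for 12 lymphocyte, interferon-related and MHC class I genes in 3 stroked NSG, 4 stroked WT, 4 non-stroked NSG and 4 non-stroked WT mice, with bars at the group means. The stroked NSG mice lie below all stroked WT mice for each gene but H2-D1, whose values overlap.

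Of 18 genes of homeostatic microglia 1 was lower and 0 higher, where 3.26% of all genes were called in either direction (median 0.038). That gene, Fcrls, an Fc receptor-like molecule, was at 18.6, 21.1 and 13 CPM in stroked NSG and 36.2, 37.6, 74.4 and 62.6 CPM in stroked WT mice (log2 difference -1.58 with SE 0.27, edgeR adjusted p = 0.000195), and was also lower in non-stroked NSG mice (log2 difference -1.31, edgeR adjusted p = 0.000643). Aif1, which encodes the microglial marker Iba1, was at 12.1, 8.72 and 7.62 CPM in NSG and 7.57, 6.89, 7.95 and 9.59 CPM in WT mice with overlapping values (log2 difference 0.25 with SE 0.27, edgeR adjusted p = 0.584). P2ry12 was at 44.3 to 50.6 CPM in NSG and 28.1 to 43.5 CPM in WT mice (log2 difference 0.46, edgeR adjusted p = 0.0270), under the fold threshold. Of 25 genes of disease-associated microglia 1 was lower (median 0.091), Cd5l, a secreted macrophage protein. It was at 0.962, 2.52 and 0.704 CPM in NSG mice and at 3.13, 8.86, 17.1 and 28.0 CPM in WT mice 1 to 4 (log2 difference -3.33 with SE 1.02, edgeR adjusted p = 0.0333). The TF mice 3 and 4 were the highest, and with the cohort as a covariate Cd5l was not called (log2 difference -1.74, edgeR adjusted p = 0.241). Within Imm2 Cd5l was called lower (log2 difference -2.09, edgeR adjusted p = 0.0265). It was not called without any one of NSG mice 1 or 3 or WT mice 3 or 4 (edgeR adjusted p from 0.0669 to 0.128). Of 32 lysosomal and lipid-handling genes 1 was lower (median 0.074), the apolipoprotein gene Apoc2 (log2 difference -4.01, edgeR adjusted p = 0.00971), which shares 88.2% of its 50-base words with another gene. Apoc2 was at 0.0253, 0.124 and 0.0918 CPM in NSG and 0.555, 0.778, 1.43 and 2.66 CPM in WT mice, and Apoc2 without NSG mouse 1 (edgeR adjusted p = 0.0606) was not called. With the cohort covariate Apoc2 was not called (log2 difference -2.65, edgeR adjusted p = 0.0820), and within Imm2 it was (log2 difference -3.01, edgeR adjusted p = 0.00861).

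Among 19 genes of border macrophages and monocytes 2 were higher, with 1.64% of all genes higher. Ly6c2 was at 0.581 to 1.34 CPM in NSG and 0.174 to 0.306 CPM in WT mice (log2 difference 1.91, edgeR adjusted p = 0.00326). Cd209f was at 0.398 to 0.784 CPM in NSG and 0.139 to 0.244 CPM in WT mice (log2 difference 1.5, edgeR adjusted p = 0.0431). Cd209f without any one of NSG mouse 1 or WT mice 1, 2, 3 or 4 (edgeR adjusted p from 0.0542 to 0.218) was not called. Within Imm2 neither was called (edgeR adjusted p = 0.0979 for Ly6c2 and 0.148 for Cd209f). Among 28 complement genes 2 were higher and 0 lower, Cfi (above) and Cd59a, which encodes an inhibitor of the terminal complement complex. Cd59a was at 21.0, 20.6 and 17.8 CPM in stroked NSG and 5.28, 4.14, 7.69 and 5.28 CPM in stroked WT mice (log2 difference 1.83 with SE 0.26, edgeR adjusted p = 2.10e-05), and was higher without a stroke too (log2 difference 1.92, edgeR adjusted p = 4.71e-06). C3, the central complement component, was at 64.7, 298 and 58.6 CPM in NSG and 59.3, 46.8, 132 and 178 CPM in WT mice (log2 difference 0.43, edgeR adjusted p = 0.769), with the highest value in NSG mouse 2. Of 13 neutrophil and mast cell genes neither edgeR nor DESeq2 called any (4 at an unadjusted p under 0.05, median -0.29, and 0.84 within Imm2). Kit, a receptor of mast cells and of some neurons, differed by 0.42 on the log2 scale (edgeR adjusted p = 0.00815), and Cpa3, a mast cell protease, was at 0 to 0.124 CPM in NSG and 0.151 to 0.489 CPM in WT mice (edgeR adjusted p = 0.0800).

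Of 37 chemokine ligands and receptors 2 were higher and 3 lower, with 1.64% of all genes higher and 1.62% lower. Besides Ccr6, Cxcl9 and Ccl5, these were Ccl17, a ligand of CCR4, at 1.01 to 1.64 CPM in NSG and 0.428 to 0.695 CPM in WT mice (log2 difference 1.29, edgeR adjusted p = 0.0167), and Cxcl5, a neutrophil-attracting chemokine (log2 difference -2.58, edgeR adjusted p = 0.0430). Cxcl5 was at 0.708, 1.19 and 0.367 CPM in NSG mice and 1.14, 2.19, 6.09 and 9.10 CPM in WT mice 1 to 4. Its values overlapped, and the TF mice 3 and 4 were the highest. Cxcl5 was not called with the cohort covariate (log2 difference -0.90, edgeR adjusted p = 0.468) or within Imm2 (log2 difference -1.13, edgeR adjusted p = 0.345). Ccl17 was not called with the covariate (log2 difference 1.05, edgeR adjusted p = 0.0824) or within Imm2 (log2 difference 1.03, edgeR adjusted p = 0.0962) either. Of 35 inflammatory cytokines and innate receptors 1 was higher, Tlr1, a receptor for bacterial lipopeptides, at 4.07, 6.20 and 5.11 CPM in NSG and 1.67, 1.72, 2.09 and 2.78 CPM in WT mice (log2 difference 1.32 with SE 0.40, edgeR adjusted p = 0.0304). Tlr1 was also higher without a stroke (log2 difference 2.89, edgeR adjusted p = 3.57e-05). Ccl17 without any one of NSG mouse 1 or WT mice 3 or 4 (edgeR adjusted p from 0.0511 to 0.0780), Cxcl5 without any one of NSG mice 1 or 3 or WT mice 3 or 4 (edgeR adjusted p from 0.0956 to 0.160) and Tlr1 without any one of NSG mouse 2 or WT mice 1, 2 or 3 (edgeR adjusted p from 0.0552 to 0.0698) were not called.

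Gfap, the filament protein of reactive astrocytes, was at 1284, 1601 and 939 CPM in stroked NSG and 903, 765, 1066 and 1144 CPM in stroked WT mice. The values overlapped and Gfap was not called (log2 difference 0.40 with SE 0.34, edgeR adjusted p = 0.469). Of 30 astrocyte reactivity genes 1 was lower, H2-T23 (above), with 1.62% of all genes lower, and the median was 0.18. Within Imm2 the median was 0.48, and 3 genes were higher and 1 lower. Lcn2, a secreted iron-carrier binding protein of reactive astrocytes, was at 82.4, 216 and 67.0 CPM in NSG mice and 21.1, 40.4, 74.2 and 106 CPM in WT mice 1 to 4 (log2 difference 1.02, edgeR adjusted p = 0.340). Within Imm2 it was higher in NSG mice (log2 difference 1.99, edgeR adjusted p = 0.0207), and WT mice 3 and 4 of the TF cohort overlapped with NSG mice 1 and 3. Of 18 astrocyte identity genes neither edgeR nor DESeq2 called any (9 at an unadjusted p under 0.05). Kcnj10, the potassium channel Kir4.1, came closest, at 489.6, 607 and 508 CPM in NSG and 299.9, 325, 258 and 243 CPM in WT mice without overlap (log2 difference 0.93 with SE 0.12, edgeR adjusted p = 4.24e-06), and passed the adjusted p without a stroke too (log2 difference 0.53, edgeR adjusted p = 0.00199). Slc7a10, an amino acid transporter, differed by 0.43 on the log2 scale (edgeR adjusted p = 0.0153).

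Of 30 collagen and fibroblast scar genes neither edgeR nor DESeq2 called any (5 at an unadjusted p under 0.05, median 0.17). Col5a1 (log2 difference 0.81, edgeR adjusted p = 0.0182) and Col15a1 (log2 difference 0.63, edgeR adjusted p = 0.0198) had the smallest p and did not reach the fold threshold. Within Imm2 the list median was 0.56, with 1 gene called higher. Of 26 matrix proteases and inhibitors 1 was higher, with 1.64% of all genes higher (median 0.20). It was Mmp15, a membrane-bound metalloproteinase. Mmp15 was at 44.7, 44.1 and 44.3 CPM in stroked NSG and 23.7, 18.6, 18.3 and 17.1 CPM in stroked WT mice (log2 difference 1.19 with SE 0.11, edgeR adjusted p = 1.87e-08). Non-stroked NSG mice were at 46.4 to 50.4 CPM and non-stroked WT mice at 23 to 27.9 CPM, just under the fold threshold (log2 difference 0.93, edgeR adjusted p = 3.03e-07).

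Of 34 angiogenesis genes edgeR called 0 and DESeq2 1 (8 at an unadjusted p under 0.05, median 0.14, with 23 positive and 11 negative values), and within Imm2 2 were higher (median 0.33). Vegfa, the main growth factor of vessels, had the smallest p. It was at 84.9, 94.2 and 66.9 CPM in stroked NSG and 58.6, 51.7, 54.6 and 53.3 CPM in stroked WT mice, without overlap and by less than the fold threshold (log2 difference 0.59 with SE 0.10, edgeR adjusted p = 0.000161). Non-stroked NSG mice were at 79.9, 76.7, 71.0 and 69.1 CPM and non-stroked WT mice at 82.9, 82.9, 76.3 and 90.7 CPM (log2 difference -0.17, edgeR adjusted p = 0.286). In the main fit the difference of the differences of Vegfa passed the adjusted p but not the fold threshold (log2 difference 0.75, edgeR adjusted p = 0.0345). Expression from the Y chromosome also differs between the stroked and non-stroked groups. Stroked NSG mice were in the range of non-stroked mice or just outside it, and the stroked WT mice were below all non-stroked mice. Aplnr, the apelin receptor of sprouting endothelium, was at 0.708, 2.3 and 0.581 CPM in NSG and 0.177, 0.250, 0.565 and 0.733 CPM in WT mice (log2 difference 1.51, edgeR adjusted p = 0.0516). Of 23 endothelial barrier genes 1 was lower, with 1.62% of all genes lower. It was Ly6a, at 6.88, 7.91 and 5.69 CPM in NSG and 12, 16.7, 27.4 and 22.6 CPM in WT mice (log2 difference -1.52 with SE 0.24, edgeR adjusted p = 8.70e-05). Ly6a was also lower without a stroke (log2 difference -1.19, edgeR adjusted p = 0.000647). Pecam1, an endothelial adhesion molecule, was at 14.0 to 22.3 CPM in NSG and 12.7 to 23.3 CPM in WT mice (log2 difference 0.033 with SE 0.19, edgeR adjusted p = 0.931). Of 18 pericyte and smooth muscle genes neither tool called any (4 at an unadjusted p under 0.05, median 0.045). Pdgfrb (log2 difference 0.49, edgeR adjusted p = 0.0409) and Vtn (log2 difference 0.38, edgeR adjusted p = 0.103) had the smallest p, and Anpep, which encodes the pericyte marker CD13, overlapped (log2 difference 0.20 with SE 0.41, edgeR adjusted p = 0.797).

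Values of Rbfox3 fell apart by cohort within the WT mice. Rbfox3, which encodes the neuronal marker NeuN, was at 340.2, 322 and 384 CPM in stroked NSG mice, at 414 and 391 CPM in the Imm2 WT mice and at 234 and 246 CPM in the TF WT mice (log2 difference 0.12 with SE 0.18, edgeR adjusted p = 0.709). NSG values lay between those of the 2 cohorts. Of 22 neuronal and cortical layer genes 1 was higher, with 1.64% of all genes higher (median 0.14), Nefh, the heavy neurofilament subunit of large axons. It was at 156, 105 and 112 CPM in NSG and 81.8, 67.0, 44.7 and 44.2 CPM in WT mice, without overlap (log2 difference 1.06 with SE 0.19, edgeR adjusted p = 0.000420). With the cohort covariate and within Imm2 the difference was smaller and under the fold threshold (log2 difference 0.80, edgeR adjusted p = 0.00301, and log2 difference 0.73, edgeR adjusted p = 0.0206), and the same held for Nefh without any one of NSG mouse 1 or WT mice 3 or 4 (log2 difference from 0.87 to 0.95, edgeR adjusted p from 0.00278 to 0.00903). Nefl, the light subunit, was at 335 to 414 CPM in NSG and 284 to 332 CPM in WT mice (log2 difference 0.23 with SE 0.12, edgeR adjusted p = 0.184). Of 24 interneuron and neuropeptide genes 1 was lower, with 1.62% of all genes lower. It was Htr3a, a serotonin-gated channel of a class of interneurons, at 2.94, 1.33 and 1.96 CPM in NSG and 5.63, 5.95, 3.61 and 4.52 CPM in WT mice (log2 difference -1.25 with SE 0.20, edgeR adjusted p = 0.000104). Of 18 axon injury and growth genes neither edgeR nor DESeq2 called any (5 at an unadjusted p under 0.05, median 0.25), with Jun (log2 difference 0.69, edgeR adjusted p = 0.00783) and Lgals1 (log2 difference 0.59, edgeR adjusted p = 0.124) at the smallest p. Of 22 oligodendrocyte and myelin genes neither tool called any (7 at an unadjusted p under 0.05, median 0.22, 21 of 22 positive). Olig2, a lineage factor, was at 39.3 to 57.6 CPM in NSG and 17.0 to 33.8 CPM in WT mice (log2 difference 0.91, edgeR adjusted p = 0.00147), and Gpr17, a receptor of differentiating precursors, was at 70.1 to 129 CPM in NSG and 56.9 to 65.1 CPM in WT mice (log2 difference 0.65, edgeR adjusted p = 0.00143).

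Immediate early genes, which neurons switch on within minutes of activity, had mostly positive log2 differences between the stroked strains, few of which passed the test. Between the non-stroked strains the log2 differences were mostly negative. Of 24 tested, 3 were higher in stroked NSG mice and 0 lower, with 1.64% of all genes higher, and the median was 0.64. In non-stroked mice 7 were lower and 0 higher, and the median was -0.82. There 247 of all 17031 genes were lower, and 3.36% were called in either direction. Ier2 was at 21.6, 12.9 and 9.73 CPM in stroked NSG and 6.67, 6.22, 4.39 and 6.96 CPM in stroked WT mice (log2 difference 1.28 with SE 0.36, edgeR adjusted p = 0.0182). Junb was at 126, 93.1 and 107 CPM in NSG and 63.7, 61.8, 28.4 and 49.7 CPM in WT mice (log2 difference 1.09 with SE 0.31, edgeR adjusted p = 0.0218), and Dusp1, a phosphatase that ends MAP kinase signals, was at 75.2, 57.5 and 48.0 CPM in NSG and 30.4, 34.2, 17.9 and 28.3 CPM in WT mice (log2 difference 1.12 with SE 0.32, edgeR adjusted p = 0.0210). All 3 lay without overlap. None was called with the cohort covariate (edgeR adjusted p = 0.0563, 0.111 and 0.0879) or within Imm2 (edgeR adjusted p = 0.213, 0.332 and 0.290), while the list median within Imm2 was 0.66. Ier2 without any one of NSG mouse 1 or WT mouse 3 (edgeR adjusted p from 0.0659 to 0.161), Junb without any one of NSG mouse 1 or WT mice 3 or 4 (edgeR adjusted p from 0.0567 to 0.0963) and Dusp1 without any one of NSG mouse 1 or WT mice 3 or 4 (edgeR adjusted p from 0.0508 to 0.116) were not called either. In non-stroked WT mice the values spread widely, with Junb at 60.0, 94.2, 204 and 79.3 CPM.

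**Figure D4:**
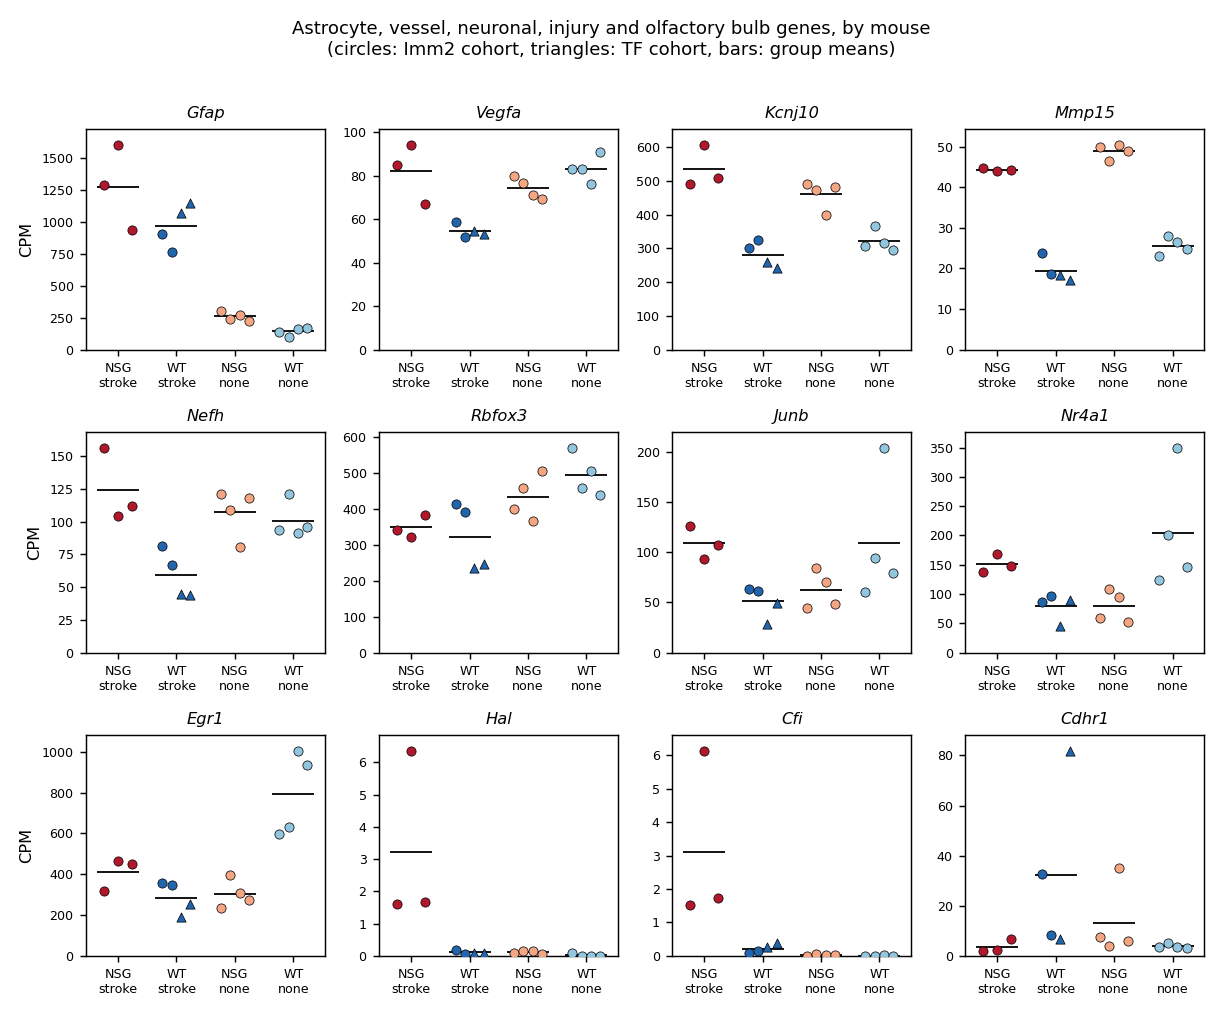
CPM on linear axes from 0 for 12 genes of astrocytes, vessels, neurons, injury and the olfactory bulb in 3 stroked NSG, 4 stroked WT, 4 non-stroked NSG and 4 non-stroked WT mice, with bars at the group means. Vegfa, Kcnj10, Mmp15 and Nefh lie above all stroked WT mice in every stroked NSG mouse, Gfap overlaps, and Cdhr1 is highest in stroked WT mouse 4 at 81.7 CPM.

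The difference of the strain differences was called for 2 genes, 0.0117% of those tested, Nr4a1 and Egr1, both immediate early genes. Egr1 was at 316, 467 and 450.1 CPM in stroked NSG, 355, 345, 189 and 252 CPM in stroked WT, 234, 398, 308 and 275 CPM in non-stroked NSG and 599.7, 629.7, 1004 and 937 CPM in non-stroked WT mice (log2 difference 1.91, edgeR adjusted p = 0.0266). Nr4a1 was at 138, 168 and 148 CPM in stroked NSG, 85.6, 96.5, 46.2 and 89.7 CPM in stroked WT, 59.8, 109, 95.6 and 52.6 CPM in non-stroked NSG and 124, 199.95, 349 and 146 CPM in non-stroked WT mice (log2 difference 2.3, edgeR adjusted p = 0.0352). For both genes the non-stroked WT mice had the highest group mean. Neither was called between the stroked strains (log2 difference 0.53, edgeR adjusted p = 0.120, and log2 difference 0.93, edgeR adjusted p = 0.0453). Gatm, an enzyme of creatine synthesis (log2 difference 0.78, edgeR adjusted p = 0.0352), Fam214a (log2 difference -0.88, edgeR adjusted p = 0.0266) and Vegfa passed the adjusted p without the fold threshold. At an unadjusted p under 0.05 there were 2167 genes, and DESeq2 called 69. With the cohort covariate or within Imm2 edgeR called 0 genes, and without stroked NSG mouse 3 it called 117.

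Among the genes called between the stroked strains, Gm45844, Dusp1, Junb, Pmaip1, Klhl30, Ier2, Slc38a5 and Ccn1 had the smallest unadjusted p for this difference of the differences, and none passed after adjustment. Pmaip1, which encodes the cell death protein Noxa, was at 10.2, 9.46 and 6.24 CPM in stroked NSG and 3.38, 3.58, 2.83 and 3.18 CPM in stroked WT mice (log2 difference 1.41 with SE 0.19, edgeR adjusted p = 7.93e-06), and without a stroke NSG mice were at 2.58 to 4.06 CPM and WT mice at 2.69 to 3.26 CPM. Slc38a5, an amino acid transporter, was at 4.07, 8.03 and 3.03 CPM in NSG and 1.92, 2.25, 1.56 and 2.05 CPM in WT mice (log2 difference 1.37 with SE 0.23, edgeR adjusted p = 0.000154), and without a stroke NSG mice were at 2.54 to 3.03 CPM and WT mice at 2.47 to 2.88 CPM. Both were also called with the cohort covariate and within Imm2, and Slc38a5 without NSG mouse 2 (log2 difference 0.87, edgeR adjusted p = 0.00326) was below the fold threshold. Ccn1, a matrix protein induced by stretch and growth factors, was at 25.7, 29.8 and 8.66 CPM in NSG and 5.98, 7.33, 7.39 and 9.41 CPM in WT mice with overlapping values (log2 difference 1.51, edgeR adjusted p = 0.0450). Klhl30 was at 0.177, 0.0741 and 0.122 CPM in NSG and 0.757, 0.306, 0.174 and 2.20 CPM in WT mice, again highest in WT mice 1 and 4. It was not called without both of them. Klhl30 without any one of NSG mice 1 or 2 or WT mouse 4 (edgeR adjusted p from 0.0576 to 0.164) and Ccn1 without any one of NSG mice 1 or 2 or WT mice 1, 2, 3 or 4 (edgeR adjusted p from 0.0718 to 0.143) were not called. Neither passed with the cohort covariate (edgeR adjusted p = 0.142 and 0.0552) or within Imm2 (edgeR adjusted p = 0.0506 and 0.227). Gm45844, a predicted gene, was at 0.337 to 0.759 CPM in NSG and 4.12 to 5.0 CPM in WT mice (log2 difference -2.88, edgeR adjusted p = 3.42e-11).

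Glucocorticoid response genes were called in both directions. Of 17 tested, Dusp1 was higher and 2 were lower, with 1.64% of all genes higher and 1.62% lower. Plin4, a coat protein of lipid droplets, was at 3.09, 5.24 and 5.45 CPM in stroked NSG and 13.6, 14.7, 34.3 and 32.7 CPM in stroked WT mice (log2 difference -2.37 with SE 0.42, edgeR adjusted p = 0.000344), and Hif3a, a regulator of the hypoxia response, was at 2.50, 7.54 and 11.6 CPM in NSG and 18.2, 20.6, 18.4 and 17.4 CPM in WT mice (log2 difference -1.38 with SE 0.34, edgeR adjusted p = 0.00859). Both lay without overlap, both were called within Imm2 and neither was called without a stroke (edgeR adjusted p = 0.0975 and 0.409). Hif3a without NSG mouse 1 (edgeR adjusted p = 0.0554) was not called. Of 26 cell cycle genes 1 was lower, with 1.62% of all genes lower. It was Bub1b, a kinase of the spindle checkpoint, at 0.506, 0.469 and 0.428 CPM in NSG and 4.01, 2.75, 2.09 and 5.22 CPM in WT mice (log2 difference -2.90 with SE 0.38, edgeR adjusted p = 5.03e-06). Bub1b was also lower without a stroke (log2 difference -2.12, edgeR adjusted p = 6.87e-05). The list median was -0.24. Of 21 genes of DNA double-strand break repair neither edgeR nor DESeq2 called any (5 at an unadjusted p under 0.05, median -0.064), and Xrcc4, a partner of DNA ligase IV in end joining, had the smallest p (log2 difference 0.46, edgeR adjusted p = 0.0397).

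Globin genes were split between copies. Of 21 heme and iron genes 4 were higher and 1 lower, with 1.64% of all genes higher and 1.62% lower. Hba-a1 was at 5.19, 12.3 and 7.5 CPM in stroked NSG and 0.783, 0.722, 0.522 and 1.34 CPM in stroked WT mice (log2 difference 3.28 with SE 0.72, edgeR adjusted p = 0.00312), while its near-identical copy Hba-a2 had 2 counts over the NSG mice and was at 0.682, 0.611, 0.478 and 1.10 CPM in WT mice (edgeR adjusted p = 0.00242). Their sum was 8.34 ± 3.60 CPM (SD, n = 3) in NSG and 1.56 ± 0.621 CPM (SD, n = 4) in WT mice. The beta globin genes Hbb-bs (log2 difference 2.28, edgeR adjusted p = 0.0419) and Hbb-bt (log2 difference 2.55, edgeR adjusted p = 0.0353) were higher too, as was Hpx, which encodes the heme carrier hemopexin (log2 difference 1.19, edgeR adjusted p = 0.0401). Globin RNA marks red blood cells left in the tissue, and their part in these values was not tested. Hbb-bs, Hbb-bt and Hpx were not called with the cohort covariate (edgeR adjusted p = 0.266, 0.197 and 0.0520) or within Imm2 (edgeR adjusted p = 0.218, 0.201 and 0.167). Hbb-bs without any one of NSG mice 1, 2 or 3 or WT mice 1, 2, 3 or 4 (edgeR adjusted p from 0.0533 to 0.124), Hbb-bt without any one of NSG mouse 2 or WT mice 1, 2, 3 or 4 (edgeR adjusted p from 0.0528 to 0.113) and Hpx without any one of NSG mice 1 or 2 or WT mice 1 or 3 (edgeR adjusted p from 0.0813 to 0.126) were not called either.

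Genes of tissue next to the cortex varied between mice. Of 16 choroid plexus and ependymal genes neither edgeR nor DESeq2 called any (0 at an unadjusted p under 0.05, median -0.045, and 1.42 within Imm2), with Tmem212 (log2 difference -0.81, edgeR adjusted p = 0.318) and Ccdc153 (log2 difference -0.52, edgeR adjusted p = 0.407) at the smallest p. Ttr, the main transcript of choroid plexus, was at 8.4, 5.51 and 380.1 CPM in stroked NSG and 3.05, 4.31, 134 and 223 CPM in stroked WT mice 1 to 4, high in NSG mouse 3 and in the TF mice. Of 21 striatal, thalamic and hippocampal genes 1 was higher and 1 lower. Wfs1, a protein of the endoplasmic reticulum in upper-layer and hippocampal neurons, was at 269.8, 374 and 266 CPM in NSG and 135, 152, 127 and 106 CPM in WT mice (log2 difference 1.22 with SE 0.17, edgeR adjusted p = 1.08e-05), as without a stroke (log2 difference 1.04, edgeR adjusted p = 3.86e-05). Th, which also marks dopamine neurons of the olfactory bulb, was at 0.860, 0.618 and 2.05 CPM in NSG and 9.82, 2.47, 2.09 and 26.8 CPM in WT mice (log2 difference -3.15, edgeR adjusted p = 0.0225) and was not called without WT mice 1 and 4, nor was Th without any one of NSG mice 1 or 2 or WT mouse 4 (edgeR adjusted p from 0.0637 to 0.137). The cohort covariate (log2 difference -2.33, edgeR adjusted p = 0.113) and Imm2 alone (log2 difference -2.41, edgeR adjusted p = 0.0790) ended its call too. Of 13 meningeal and skull genes 3 were higher, with 1.64% of all genes higher. Aldh1a2, a retinoic acid enzyme of the meninges, was at 19.4, 18.0 and 18.7 CPM in NSG and 8.05, 10.2, 6.35 and 11.1 CPM in WT mice (log2 difference 1.06 with SE 0.27, edgeR adjusted p = 0.00929), the muscle myosin Myh4 was at 1.14 to 1.90 CPM in NSG and 0.244 to 0.884 CPM in WT mice (log2 difference 1.51, edgeR adjusted p = 0.00728), and the bone gene Bglap was at 0.0759, 1.01 and 0.0918 CPM in NSG and 0 to 0.0916 CPM in WT mice, with overlapping values (log2 difference 2.80, edgeR adjusted p = 0.0294). Aldh1a2 without WT mouse 3 (log2 difference 0.93, edgeR adjusted p = 0.0408) and Bglap without any one of NSG mouse 2 or WT mice 1, 2, 3 or 4 (edgeR adjusted p from 0.0508 to 0.701) were not called. Within Imm2 Myh4 and Bglap were not called (edgeR adjusted p = 0.133 and 0.0927). Of 4 Y-linked genes tested none was called, and 2 NSG and 2 WT mice were at or near 0 for them.

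**Figure D5:**
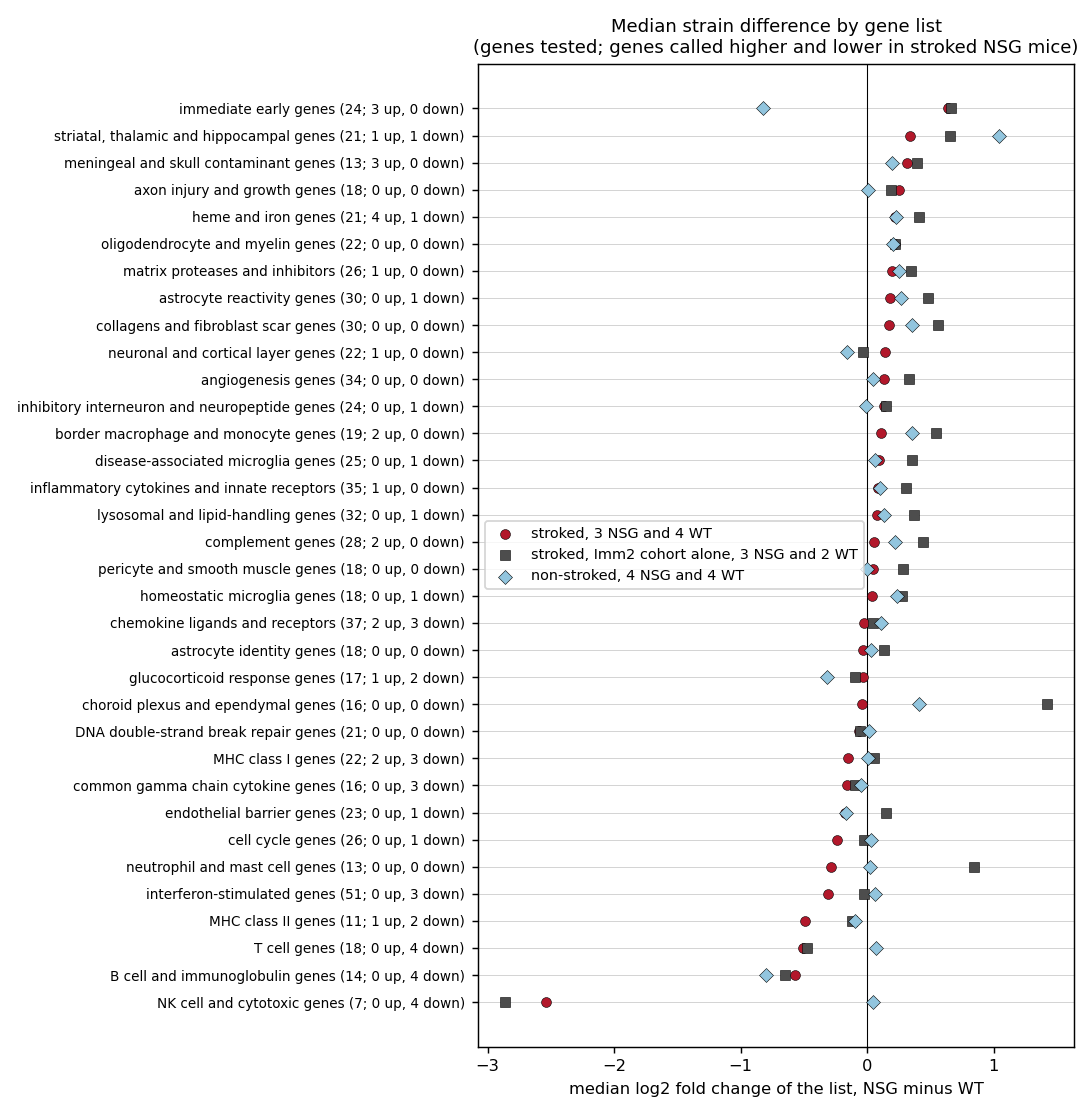
Median log2 fold change, NSG minus WT, of 34 gene lists (rows, with the number of genes tested and called higher and lower in stroked NSG mice), in stroked mice of both cohorts (circles), in stroked mice of the Imm2 cohort alone (squares) and in non-stroked mice (diamonds). Among the circles the NK cell list lies lowest at -2.54 and the immediate early genes highest at 0.64, and the latter are at -0.82 in non-stroked mice. Among the squares the NK cell list lies lowest at -2.87 and the choroid plexus and ependymal genes highest at 1.42. Only 7 of the 20 NK cell genes were tested, which passed the filter on low counts mainly through the WT mice. The medians of that list are therefore a description.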

How the data were processed

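RNA was extracted from microdissected cortex, and polyadenylated RNA was made into libraries with a TruSeq stranded kit. The authors deposited raw counts of reads per gene for each sample, made at their sequencing centre, and the 29 samples were joined here. The aligner, the genome build and the treatment of strand and of reads that match several places are not given in the sources used here. Gene symbols and GRCm38 positions were taken from GENCODE M21, which held 25712 of the identifiers and lacked 34. Each row of counts names a gene. The 29 samples held 17789044 to 43403413 counts each.

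Counts were normalised by TMM and fitted with the quasi-likelihood test of edgeR 4.0.16 in R 4.3.3, in 1 fit of all 29 samples in 8 groups after filterByExpr (17031 genes, 21 residual degrees of freedom). Adjusted p is by Benjamini-Hochberg over all genes tested and two-sided, and the SE is the absolute log2 fold change divided by the square root of F. CPM were computed from the TMM-adjusted library size. The contrasts were stroked NSG minus stroked WT, non-stroked NSG minus non-stroked WT, and the difference of these 2. Each p-value sets a difference against the spread between mice, which was estimated over all 29 samples in 8 groups. For genes with 0 counts over a group the fold is a bound against 3 counts over that group, and for genes with 1 to 3 counts it is a ratio with an exact 95% interval. The scripts were tested on simulated data.

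The genes named were the altered genes and study markers, the 12 genes of largest change on each side among calls with a known name, a mean of at least 1 CPM in a group and no overlap between the groups, up to 5 called genes of each list or the 2 with the smallest p where none was called, and the 8 called genes with the smallest p for the difference of the differences. Other genes were named after their values were seen, and these are the olfactory bulb genes, the copies of named genes, mt-Nd4l, mt-Nd4, Gatm, Fam214a and genes given only as context. The members and lists were chosen with earlier results of these data known. The 50-base words were compared over all transcripts of GENCODE M21. The settings varied were RLE in place of TMM, the filter (none, or a mean of at least 1 CPM), DESeq2 1.42.0, only the groups compared, no minimum fold change, Ddx3y or cohort as a covariate, the Imm2 cohort alone and leaving out each mouse. Leaving out WT mice 1 and 4 together, and fits of the non-stroked mice that share a label number, with and without it as a block, were added after seeing the data. All non-stroked mice belong to Imm2, so no cohort term applies to them. A few genes that the rule for named genes or the gene lists cover are not reported here.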

Additional observations from a re-analysis of the deposited data

Results flagged for a closer look

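In 4 stroked WT mice a single value stood apart for 5 of the 109 named genes tested, by the ratio of its gap from the nearest mouse to the whole range on the log2 scale. Chance flags about 1 in 20 such groups. Ifi202b was at 0.0435 CPM in WT mouse 3 and at 0 in the others (ratio 1.0), which is a single read. Igkc was highest in WT mouse 2 at 4.39 CPM (ratio 0.831). Iglc3 was lowest in WT mouse 3 (ratio 0.869), as was Hbb-bs at 1.35 CPM (ratio 0.891). H2-Q1 was lowest in WT mouse 1 at 0.126 CPM (ratio 0.851).

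The interaction test of edgeR, of whether the strain difference changed with stroke, passed the adjusted p for 5 genes in the main fit. The log2 difference of the differences was 2.3 for Nr4a1 (adjusted p = 0.0352), 1.91 for Egr1 (adjusted p = 0.0266), 0.783 for Gatm (adjusted p = 0.0352), 0.754 for Vegfa (adjusted p = 0.0345) and -0.883 for Fam214a (adjusted p = 0.0266). Nr4a1 and Egr1 also passed the fold threshold, and neither passed with the cohort covariate or within the Imm2 cohort. With only the groups compared 0 genes were called, and with one mouse left out 0 to 117. The stroked and non-stroked groups also differ in expression from the Y chromosome.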

How the results depend on the processing

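No paired analysis of the stroked mice was possible because NSG and WT mice there share only 1 number within a cohort, and the labels do not say what the numbers stand for. Non-stroked mice of both strains share the numbers 1, 3 and 4, whose deviations correlated at -0.258, 0.108 and -0.135. Pairs of different numbers correlated at -0.134 to 0.301. So few values cannot tell whether mice of the same number share anything else. Over these 6 mice 411 genes were called, and 318 with the number as a replicate block, both fits added after seeing the data. The count of 556 genes between the stroked strains was 267 with a mean of at least 1 CPM, which tests fewer genes, 257 with only the groups compared, and 2191 with no minimum fold change. It was 449 to 650 with one mouse left out and 396 to 634 under the other alternatives. The non-stroked count of 573 was 288 with a mean of at least 1 CPM, 1662 with no minimum fold change, and 474 to 571 with one mouse left out. The difference of the differences, 2 genes, had 69 with DESeq2, 0 with only the groups compared, the cohort covariate or Imm2 alone, 5 with no minimum fold change, 9 with the Ddx3y covariate and 0 to 117 with one mouse left out (117 without stroked NSG mouse 3). The cause of these shifts was not tested.

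Over the named genes 1586 of 1820 values kept their direction and side of the threshold, 190 lost the call and 22 gained it, and 42 of 81 called genes kept their call in every setting that tested them, 13 of which were not tested with a mean of at least 1 CPM. Log2 differences that were called under no setting changed sign 22 times. With the Ddx3y covariate Pecam1 was at -0.036, and without WT mice 1 and 4 at -0.10. With the cohort covariate Hc was at 0.70 and Rbfox3 at -0.19. In Imm2 alone Hc was at 0.92, Rbfox3 at -0.21 and Tmem212 at 0.43. With one mouse left out the ranges were -0.35 to 0.52 for Anpep, -12.34 to 0.28 for Ddx3y, -12.50 to 0.081 for Eif2s3y, -0.52 to 0.16 for Hc, -0.15 to 0.19 for Pecam1, -0.0055 to 0.26 for Rbfox3 and -0.064 to 0.0062 for Sirpa. Depth limits genes below about 1 CPM, where 0 counts in the 3 NSG mice give only a bound.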

Other observations

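The following genes were picked after their values were seen, from those called between the stroked strains in all mice, with the cohort covariate and within the Imm2 cohort, but not called between the non-stroked strains, so their differences are a description. Tnfrsf8, which encodes the lymphocyte activation receptor CD30, was at 0.531, 0.420 and 0.887 CPM in stroked NSG and 2.42, 2.72, 1.91 and 2.02 CPM in stroked WT mice. Nkx2-2, a transcription factor of the oligodendrocyte lineage, was at 12.9, 9.66 and 6.85 CPM in stroked NSG and 4.82, 4.75, 2.52 and 2.81 CPM in stroked WT mice. Cdkn2b, which encodes the cell cycle inhibitor p15, was at 1.62, 2.62 and 0.734 CPM in stroked NSG and 0.530, 0.389, 0.565 and 0.672 CPM in stroked WT mice. Itgad, an integrin subunit of macrophages, was at 0.582, 4.45 and 1.47 CPM in stroked NSG and 0.353, 0.250, 0.565 and 0.519 CPM in stroked WT mice.

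Over the autosomes and X, the share of tested genes called between the stroked strains was highest on chromosome 14 (5.87%) and 17 (5.38%), the latter with the MHC, and lowest on X (1.26%) and 16 (1.36%), where all genes gave 3.26%.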
